A study of Homo sapiens with 6 samples.

Results

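Contacts between FGF18 and the stretch of chromosome 5 that holds RANBP17 and TLX3 were measured by 4C-seq in K562 cells, an established human line derived from chronic myeloid leukaemia. The members are the HindIII fragments that overlap chr5:170288874-170739138 (hg19), from the start of RANBP17 to the end of TLX3, and that had a read in at least 1 library. There were 135 of them, out of 917 such fragments within 2 Mb of the FGF18 viewpoint and 206896 in the whole data set. In all, 1 fragment overlaps TLX3 (chr5:170736288-170739138) and the other 134 are counted here as RANBP17. The end of RANBP17 on hg19 was not used, so the short space between the genes is counted with RANBP17 or TLX3 by fragment. The stretch lies 113.3 to 563.6 kb from the viewpoint fragment, chr5:170851908-170853009, on its centromeric side, called "below" here. The labels do not give the bait fragment. The fragment used as viewpoint has the most reads of all on chr5 (6 libraries summed) and lies beside an unlisted interval of 11 kb (chr5:170840932-170851907) that may hold the bait, so distances could shift by about that much. The labels do not place the silencers either, and whether an excision touches a counted fragment was not tested.

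In this assay chromatin is fixed, cut with HindIII and ligated, then cut again with DpnII. The pieces joined to 1 chosen fragment, the viewpoint, are amplified and sequenced, so that reads on a fragment stand for how often it was joined to the viewpoint across many cells. The libraries fall into 3 groups of 2: cells with an empty vector (EV), cells in which the silencer 1 region was knocked out (S1KO), and cells in which silencers 1 and 2 were both knocked out (DKO). Per the labels, all 3 groups went through the CRISPR procedure, and the EV libraries are also labelled as untreated. The labels do not say whether the knockout cells are a clone or a pool. The series' design text calls the replicates biological without saying what was separate, so the p-values measure the spread between these libraries only.

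RANBP17 encodes a protein of the importin-beta family, whose members carry cargo through nuclear pores with the help of the GTPase Ran. TLX3 encodes a homeobox transcription factor that sets the identity of certain neurons, and it is known in leukaemia because chromosomal rearrangements in T cells can place it beside foreign enhancers and switch it on. FGF18 is a secreted fibroblast growth factor, and a silencer is a DNA element that lowers the activity of a gene, often through a loop to it. Reads of this assay show contacts and not expression.

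The promoters of both genes are shown because contacts are read only at cut sites, and the letters show whether such a site falls in the promoter itself. They are from RefSeq on GRCh38.p14, a different build from that of the contact data, and run from 250 bases before to 50 after each gene's start on the plus strand (RANBP17 chr5:170861768-170862067, TLX3 chr5:171308998-171309297). Capitals mark matches to the motifs searched for on both strands, so that a GC box on the other strand reads CCGCCC: the HindIII site AAGCTT, the DpnII site GATC, the GC box GGGCGG and the CCAAT box CCAAT, and no 2 matches overlap.
RANBP17: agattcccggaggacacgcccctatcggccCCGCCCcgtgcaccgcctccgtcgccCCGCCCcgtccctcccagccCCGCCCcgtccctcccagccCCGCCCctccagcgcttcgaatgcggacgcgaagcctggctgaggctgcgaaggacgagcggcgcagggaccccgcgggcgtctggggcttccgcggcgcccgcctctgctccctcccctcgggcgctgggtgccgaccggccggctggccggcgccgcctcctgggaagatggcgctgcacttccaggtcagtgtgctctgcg
TLX3: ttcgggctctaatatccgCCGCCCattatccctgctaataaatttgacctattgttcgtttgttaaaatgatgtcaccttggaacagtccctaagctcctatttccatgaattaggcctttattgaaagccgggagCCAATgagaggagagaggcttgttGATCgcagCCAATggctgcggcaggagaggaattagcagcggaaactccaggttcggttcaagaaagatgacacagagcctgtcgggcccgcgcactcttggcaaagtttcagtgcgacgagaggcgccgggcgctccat
Neither promoter holds a HindIII site, which 5.8% of 35116 RefSeq promoters of this length do. The RANBP17 promoter has 4 GC boxes and 39 CpG dinucleotides, with a GC content of 76.7%. TLX3 has 1 GC box, 2 CCAAT boxes, 1 DpnII site and 17 CpG dinucleotides, with a GC content of 51.3%. Of all promoters 45.0% hold a GC box, 34.6% a CCAAT box and 41.7% a DpnII site, and their median GC content is 58.7%. These matches are a description of the letters only.

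The libraries held 708503 to 1919737 reads, of which 65464 to 271861 lay on chr5 within 2 Mb of the viewpoint, leaving out fragments within 10 kb of it. The DKO libraries were the deepest there. One library stood apart: EV replicate 2 had a read on 48 of the 135 members and on 445 of the 917 fragments within 2 Mb, while the other 5 libraries had a read on 97 to 129 members and 647 to 813 fragments. It held 65464 reads within 2 Mb against 68303 in EV replicate 1, but these were 3.41% of its reads against 9.64%. That percentage was 10.3 and 8.65 in S1KO and 13.7 and 20.9 in DKO, so it was highest in DKO, and its part in the results was not tested. The main results against EV are also given without EV replicate 2.

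RANBP17 took a larger share of the contacts of FGF18 in cells lacking both silencers. Of every 1000 chr5 reads within 2 Mb its fragments held 55.2 and 49.3 with the empty vector. The S1KO libraries held 61.8 and 54.8, and the DKO libraries 90.5 and 98.9. Both DKO libraries lay above all 4 others, while S1KO and EV overlapped. EV averaged 52.3 ± 4.13 (SD, n = 2 in every group), S1KO 58.3 ± 4.91, and DKO, at 94.7 ± 5.99, stood at 1.81 times the EV level. Counting error was smaller than the gap, with a 95% Wilson interval of 53.5 to 56.9 in EV replicate 1 and of 89.3 to 91.6 in DKO replicate 1. Such intervals cover counting error only, since reads copied by PCR are not independent ligations.

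**Figure D1:**
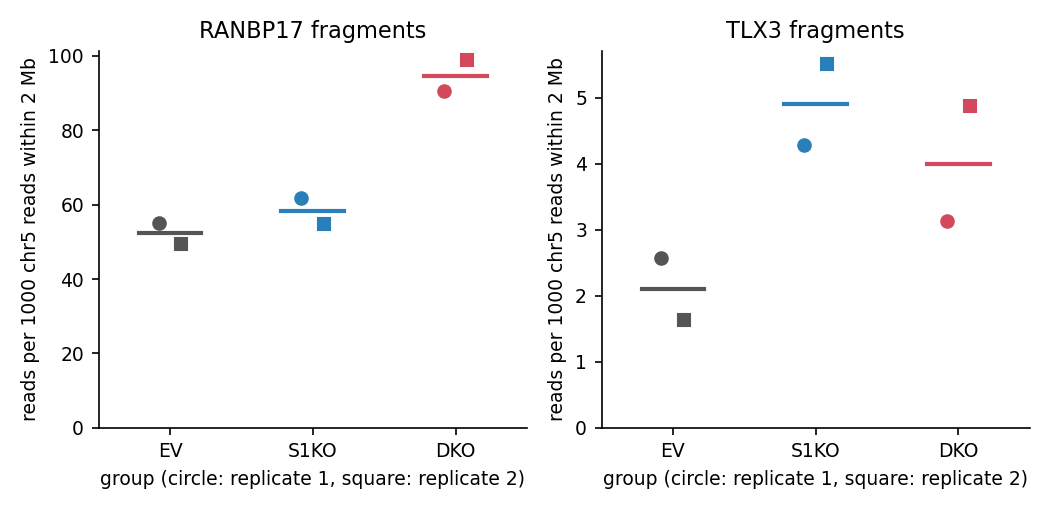
Reads per 1000 chr5 reads within 2 Mb of the viewpoint for the RANBP17 fragments (left) and the TLX3 fragment (right), by group; circles are replicate 1, squares replicate 2 and bars the mean of 2 libraries. RANBP17 was at 49.3 to 61.8 in EV and S1KO and at 90.5 and 98.9 in DKO, while for TLX3 the S1KO and DKO libraries overlap and all 4 lie above EV.

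The rise of RANBP17 in DKO over EV passed edgeR's quasi-likelihood test (log2 fold change 0.86, SE 0.19, adjusted p = 0.0006). The test was run on 72 features, namely the 2 genes and the 50-kb windows within 2 Mb that hold no member. Of these, 14 (19.4%) passed, 5 of them higher (6.94%) and 9 lower. RANBP17 sums 134 fragments over 421 kb, so it is not like for like with a 50-kb window. When 50-kb windows over the stretch were tested instead, their SE was 0.27 to 0.56. The median over all 72 stood at log2 -0.30 on this scale. Scaled to all chr5 reads the calls were 7 higher and 0 lower (median 0.23), to reads within 10 Mb 6 and 7 (-0.19), to reads within 1 Mb 5 and 9 (-0.34), and to reads below only 4 and 21 (-0.50). With the viewpoint zone counted in they were 5 and 7 (-0.27), with TMM 9 and 1 (0.12), and with DESeq2 9 and 3 (0.07). RANBP17 was called higher under each of these 7 scalings, at log2 0.66 to 1.40. Without EV replicate 2 its log2 fold change was 0.78 (edgeR adjusted p = 0.026), and over the 4 libraries left out in turn it lay between 0.78 and 0.94 with adjusted p-values of 0.01 to 0.048. When each fragment with a read was counted once, whatever its number of reads, the log2 fold change was 0.41 and did not pass (edgeR adjusted p = 0.49). In that setting 30 features were left to test, and 0 of them (0%) passed in any comparison. The exact two-sided permutation test on the shares gave p = 0.333, the smallest that 2 libraries against 2 allow.

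Loss of silencer 1 alone left RANBP17 at log2 0.16 against EV (SE 0.19, edgeR adjusted p = 0.8). In that comparison 0 of the 72 features (0%) passed edgeR, an unadjusted p under 0.05 was found for 3 (4.17%), 1 of them TLX3, and 0 were called by DESeq2. For DKO against S1KO, which compares cells lacking both silencers with cells lacking silencer 1, RANBP17 was higher by log2 0.70 (SE 0.19, edgeR adjusted p = 0.0062). There 16 of 72 features (22.2%) passed, 4 of them higher (5.56%). This comparison shares the DKO libraries with the one against EV. The call, from edgeR's model across all features, was lost without S1KO replicate 2 (log2 0.62, edgeR adjusted p = 0.11), without DKO replicate 1 (0.76, edgeR adjusted p = 0.085) and without DKO replicate 2 (0.63, edgeR adjusted p = 0.19). It missed the threshold when scaled to reads below the viewpoint only (log2 0.49, edgeR adjusted p = 0.051) and when fragments were counted once (log2 0.11, edgeR adjusted p = 0.94).

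For TLX3 the S1KO mean was the highest, and no difference between groups passed the edgeR test. Its fragment, chr5:170727199-170743145, is 15947 bases long and reaches 9089 bases below the start of the gene and 4007 above its end, so its reads cannot be assigned to the gene alone. It held 2.58 and 1.63 reads per 1000 in EV, 4.29 and 5.52 in S1KO, and 3.14 and 4.87 in DKO. All S1KO and DKO libraries lay above both EV libraries, and S1KO overlapped DKO. In edgeR's test S1KO over EV was 2.33-fold (log2 1.22, SE 0.57, adjusted p = 0.55), DKO over EV 1.90-fold (log2 0.93, SE 0.56, adjusted p = 0.21), and DKO against S1KO stood at log2 -0.29 (SE 0.55, adjusted p = 0.82), a difference whose sign turned with all chr5 reads, TMM and DESeq2. DESeq2 gave log2 1.30 for DKO against EV with an adjusted p of 0.038. Over the other alternatives tried for that comparison, edgeR's adjusted p was 0.095 to 0.64. With EV replicate 2 left out, the edgeR log2 values against EV were 0.93 for S1KO and 0.64 for DKO.

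Measured per length, EV cells had 12.4 ± 0.981 reads per 1000 for each 100 kb of RANBP17 fragments and 13.2 ± 4.18 for the TLX3 fragment (SD, n = 2). These densities are not like for like, since distance was not adjusted for. The TLX3 fragment lies 117.3 kb below the viewpoint, and the RANBP17 fragments 125.3 to 561.8 kb below. EV means were 17.6 in the 50-kb window starting 100 kb below and 1.91 in that starting 500 kb below. The TLX3 fragment is also long, at 15947 bases against a member median of 2079. In S1KO the densities were 13.8 ± 1.17 and 30.8 ± 5.41, and in DKO 22.5 ± 1.42 and 25.1 ± 7.69. The density of TLX3 divided by that of RANBP17 came to 1.23 and 0.874 for EV, to 1.84 and 2.66 for S1KO, and to 0.915 and 1.3 for DKO. Both S1KO libraries thus exceeded the 4 others in this ratio, by 1.09 on the log2 scale over EV (exact permutation p = 0.333, the smallest possible). DKO differed from EV by 0.07 (exact permutation p = 0.667). With 3.67 reads per 1000 on average, the TLX3 fragment was the member with most reads. Among the 917 fragments within 2 Mb it ranked 97 and 150 in EV, 51 and 34 in S1KO, and 55 and 35 in DKO.

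Within the stretch most contacts lay in the part nearest to the viewpoint, and DKO stood above EV at both ends. The interval was divided into 3 equal sections by fragment centre. The far section, chr5:170288383-170440021, which holds the start of RANBP17, had 10.8 and 6.05 reads per 1000 in EV, 11.9 and 13.3 in S1KO, and 19.3 and 23.6 in DKO. Its ratio of DKO to EV was the largest of the 3 sections, 2.54, with no overlap between groups (log2 difference 1.40, exact permutation p = 0.333, the smallest possible). The middle section, chr5:170440026-170587109, had 10.9 and 18.5 in EV, 13.4 and 14.1 in S1KO, and 16.7 and 24.9 in DKO, and here EV and DKO overlapped (ratio 1.41, exact permutation p = 0.667). That overlap comes from EV replicate 2. Without it the ratio of DKO to EV was 1.98 in the far, 1.9 in the middle and 1.57 in the near section, with both DKO libraries above EV replicate 1 in each. The near section, chr5:170589223-170743145, which ends with TLX3, had 36 and 26.4 in EV, 40.7 and 33 in S1KO, and 57.6 and 55.3 in DKO, a ratio of 1.81. Whether the sections differ from each other in their change was not tested.

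The same reads were also counted in 50-kb windows from the viewpoint, of which 9 have their centre in the stretch. All 9 had a log2 fold change above 0 for DKO against EV, from 0.42 to 1.88, against 31 of all 80 windows (38.8%). In 8 of the 9 both DKO libraries lay above both EV libraries, against 20 of 80 (25%). Without EV replicate 2 this held in 9 of 9, against 28 of 80 (35%). Of these 9, 2 passed edgeR's adjusted p of 0.05, both higher, where 14 of all 80 windows (17.5%) passed and 6 (7.5%) were higher. The called windows are the sparse ones starting 500 and 300 kb below, chr5:170302458-170352457 and chr5:170502458-170552457. The first held 1.36 and 2.46 reads per 1000 in EV against 7.61 and 6.5 in DKO, and the second 2.47 and 0.947 against 5.32 and 6.96. Both calls were lost without either DKO library, the first also without EV replicate 1 and the second without EV replicate 2 (edgeR adjusted p = 0.06 to 0.17), and 0 of 18 member windows passed when windows were 25 kb wide. In the second window S1KO also stood above EV, at 5.37 and 4.59 (log2 1.54, SE 0.56, edgeR adjusted p = 0.58). The number of its 14 fragments with a read was 7 and 1 in EV, 9 and 9 in S1KO, and 10 and 14 in DKO, so that 1 fragment carried all its reads in EV replicate 2.

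**Figure D2:**
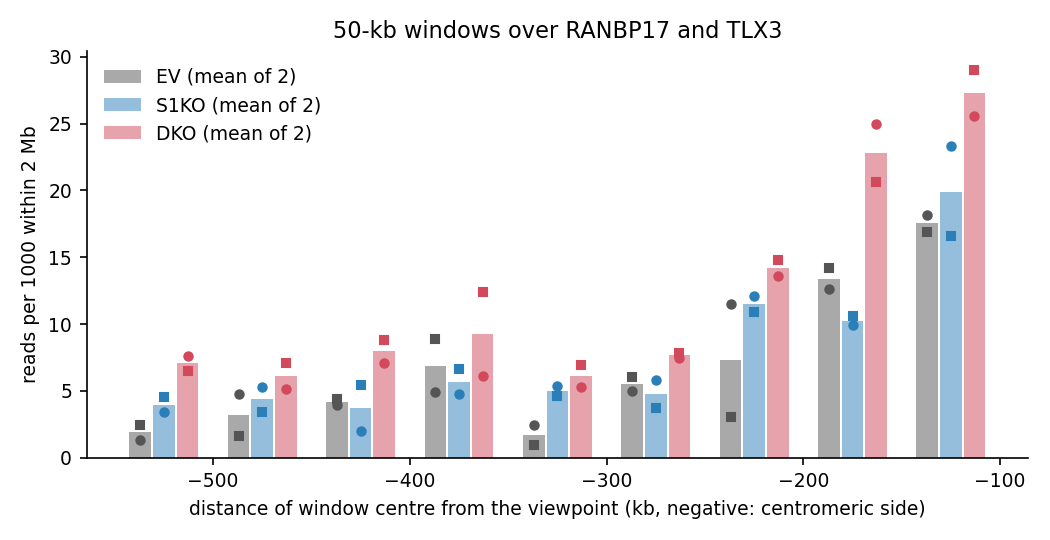
Reads per 1000 chr5 reads within 2 Mb in the 9 windows of 50 kb over RANBP17 and TLX3, against the distance of the window centre from the viewpoint; bars are group means of 2 libraries, circles replicate 1 and squares replicate 2. The DKO bars exceed the EV bars in all 9 windows, and the window nearest to the viewpoint is the highest in each group, at 17.6 in EV, 19.9 in S1KO and 27.3 in DKO.

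The windows nearest to the viewpoint held more reads and missed the threshold against EV. The window starting 100 kb below, with TLX3 and the last part of RANBP17, held 18.2 and 16.9 reads per 1000 in EV, 23.3 and 16.6 in S1KO, and 25.6 and 29 in DKO (DKO against EV log2 0.64, SE 0.27, edgeR adjusted p = 0.081). The next, starting 150 kb below, held 12.6 and 14.2 in EV, 9.91 and 10.6 in S1KO, and 25 and 20.6 in DKO (DKO against EV log2 0.77, SE 0.30, edgeR adjusted p = 0.062). There the S1KO values were both lower than the EV values (log2 -0.39, edgeR adjusted p = 0.7). It was the 1 member window that passed for DKO against S1KO (log2 1.15, SE 0.30, edgeR adjusted p = 0.0079), where 12 of 80 windows (15%) passed, 3 of them higher (3.75%). That call was lost without S1KO replicate 1, DKO replicate 1 or DKO replicate 2 (edgeR adjusted p = 0.088, 0.19 and 0.069). For S1KO against EV 0 of 80 windows (0%) passed edgeR, with 3 (3.75%) at an unadjusted p under 0.05 and 0 by DESeq2. Leaving out EV replicate 1 leaves only EV replicate 2, the library that stood apart. The median log2 of the 9 member windows for S1KO against EV was then 0.24, against 0.18 with all libraries.

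The fragments varied far more than the sums. Member fragments were 33 to 19216 bases long, with a median of 2079, and longer ones had a higher mean share over the 6 libraries (Spearman 0.404 over 135 fragments, which share these libraries). Reads were found in all 6 libraries on 37 of the 135. Across the members, counts of replicates correlated with Spearman 0.342 for EV, 0.447 for S1KO and 0.644 for DKO. The 10 members with most reads held 40.9% and 51.4% of the member reads in EV, 35% and 37.8% in S1KO, and 31.4% and 28.3% in DKO. The lowest shares among members were those of DKO. Over all fragments within 2 Mb the top 10 held 23.2% and 26.8% in EV, 22.2% and 22.8% in S1KO, and 27.9% and 24.1% in DKO. There DKO was not the lowest.

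**Figure D3:**
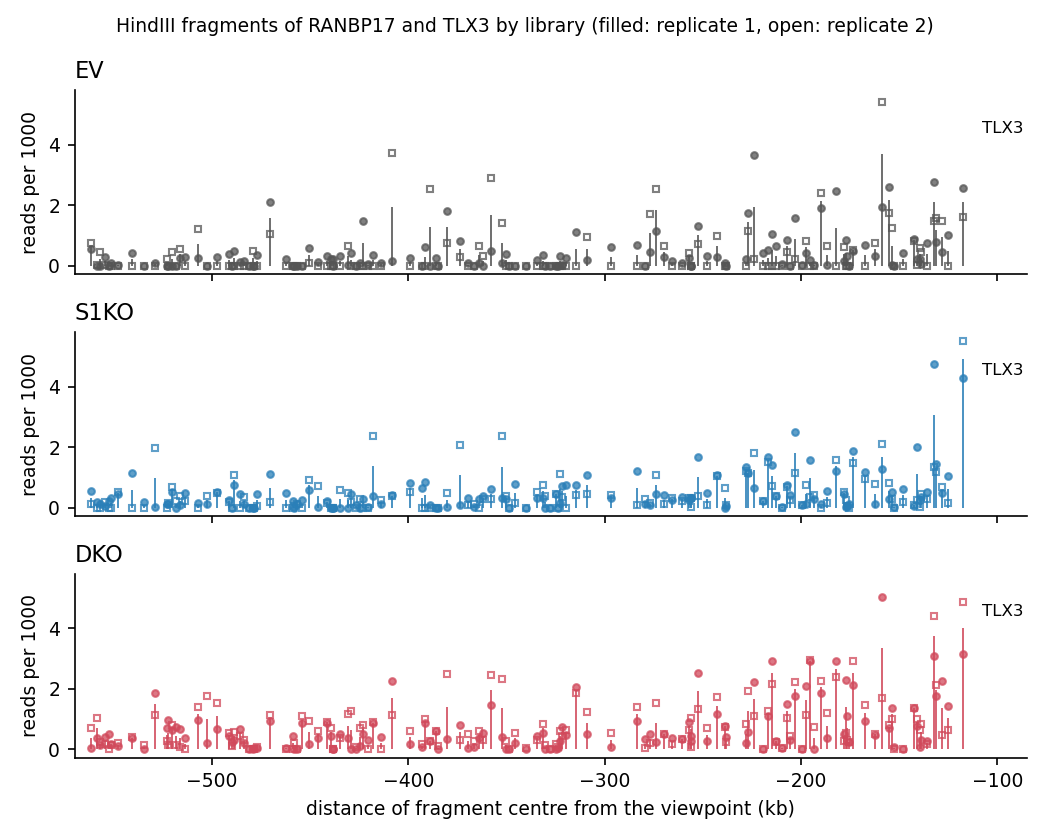
Reads per 1000 chr5 reads within 2 Mb on each of the 135 member fragments, against distance from the viewpoint, in EV, S1KO and DKO; filled circles are replicate 1, open squares replicate 2 and lines the group mean. Single fragments scatter widely between replicates in every group, and reads lie on 48 fragments in EV replicate 2 and on 129 in DKO replicate 2.

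Single fragments were compared by the order of their libraries. In 60 of the 135 members (44.4%) both DKO libraries lay above both EV libraries, against 197 of all 917 fragments within 2 Mb (21.5%), and in 1 (0.741%) both lay below, against 117 (12.8%). For the 344 other fragments below the viewpoint the numbers were 86 (25%) above and 19 (5.52%) below. Without EV replicate 2, both DKO libraries lay above EV replicate 1 in 77 members (57%) against 30.4% of all fragments, and below it in 17 (12.6%) against 36.8%. In S1KO against EV, 33 members (24.4%) lay above, against 17.1% of all, and 9 (6.67%) below, against 9.81%. Without EV replicate 2 these came to 44 (32.6%) against 26.5% and to 30 (22.2%) against 31.5%. In DKO against S1KO, 40 (29.6%) lay above, against 15.8%, and 12 (8.89%) below, against 20.2%. The comparisons share libraries, and fragments of 1 library are not replicates.

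No single member passed edgeR's test in any comparison. Of the 135, 120 had at least 10 reads in at least 2 libraries and were tested among 789 fragments, of which 0 (0%) passed in each comparison. At an unadjusted p under 0.05 there were 5 members in S1KO against EV, 9 in DKO against EV and 4 in DKO against S1KO, against 33, 46 and 35 of all 789 fragments (4.18%, 5.83% and 4.44%). DESeq2 called 1, 2 and 0 of the 120 members, against 6, 12 and 8 of all 789 fragments (0.76%, 1.52% and 1.01%). The authors' deposited table of each library gives no member a q-value at or under 0.05, while of the 917 fragments 1.2% and 0.545% have one in EV, 1.85% and 1.64% in S1KO, and 0.872% and 2.07% in DKO.

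The fragment that holds the start of RANBP17, chr5:170288383-170292912, lies 561.8 kb below the viewpoint. It held 39 and 50 reads in EV, 71 and 14 in S1KO, and 15 and 193 in DKO, or 0.571 and 0.764, 0.542 and 0.131, and 0.0622 and 0.71 per 1000. DKO replicate 1 lay below both EV values and DKO replicate 2 between them, and the difference did not pass (log2 -0.79, SE 1.93, edgeR adjusted p = 0.97). With this error, neither a rise nor a fall of this fragment could be detected.

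The 8 RANBP17 fragments with most reads lie 131.2 to 224.0 kb below the viewpoint, in the near part of the stretch, with mean shares of 1.43 to 2.97 per 1000. The strongest, chr5:170719199-170720738, held 2.78 and 1.47 reads per 1000 in EV, 4.74 and 1.35 in S1KO, and 3.09 and 4.4 in DKO. The next, chr5:170690427-170697062, held 1.96 and 5.42, 1.27 and 2.11, and 5.03 and 1.7. In the first the DKO libraries exceeded the EV libraries, and in the second they overlapped. Another of the 8, chr5:170677082-170680553, had close replicates, with 34 reads in each EV library, 246 and 159 in S1KO, and 512 and 798 in DKO. That is 0.498 and 0.519, 1.88 and 1.48, and 2.12 and 2.94 per 1000, an order that runs without overlap from EV to S1KO to DKO (DKO against EV log2 2.31, SE 0.90, edgeR adjusted p = 0.77).

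Other fragments with the lowest p for DKO against EV were empty or nearly empty in EV. On chr5:170655513-170658692 EV had 14 and 0 reads, S1KO 209 and 38, and DKO 705 and 802 (edgeR adjusted p = 0.74, log2 4.82, SE 1.62). DESeq2 called it with an adjusted p of 0.018. On chr5:170349208-170350407 both EV libraries had 0 reads, S1KO 15 and 42, and DKO 55 and 483. With EV set to a floor of 3 reads per library, the S1KO mean was 5.64 times the floor and the DKO mean 22.3 times. The floor allows for counting error only, and EV replicate 2 had a read on just 48 of the 135 members. The differences did not pass edgeR (adjusted p = 0.73 and 0.74), and DESeq2 called that of DKO with an adjusted p of 0.018. The DKO libraries differ widely from each other there.

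Some fragments were low in S1KO and not in DKO. On chr5:170659586-170665206, one of the 8, EV held 1.9 and 2.4 reads per 1000, S1KO 0.13 and 0, and DKO 1.86 and 2.27. DKO thus overlapped EV. Its log2 difference was -5.01 for S1KO against EV (SE 1.52, edgeR adjusted p = 0.73; DESeq2 adjusted p = 0.014) and 4.95 for DKO against S1KO (SE 1.51, edgeR adjusted p = 1). On chr5:170709247-170710195 EV held 60 and 54 reads, S1KO 8 and 9, and DKO 327 and 370, which is 0.878 and 0.825, 0.061 and 0.084, and 1.36 and 1.36 per 1000. Replicates were close on this fragment, but the differences did not pass (S1KO against EV log2 -3.54, SE 1.45, edgeR adjusted p = 0.73). On chr5:170465816-170467297 both S1KO libraries had 0 reads and DKO had 148 and 169, a mean share 24.3 times the floor, while EV had 18 and 0. Reads in both EV libraries and none in both DKO libraries were found for 0 members, against 7 of all 917 fragments (0.763%). The reverse was found for 17 of the 135 members (12.6%), against 64 of 917 (6.98%). Counting EV replicate 1 alone it was found for 23 (17%), against 88 (9.6%).

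How many members had a read at all also differed by group. The numbers were 97 and 48 in EV, 115 and 98 in S1KO, and 120 and 129 in DKO. At a common depth of 65464 reads within 2 Mb the expected numbers were 96.9 and 48.0, 114.3 and 97.9, and 116.9 and 125.2, so depth changes them little. As shares, members with a read came to 71.8% and 35.6% in EV, 84.7% and 72.5% in S1KO, and 86.6% and 92.7% in DKO. Over all 917 fragments within 2 Mb the shares were 77.3% and 48.5%, 79.6% and 69.9%, and 73.5% and 85.7%. Both DKO libraries thus exceeded both EV libraries among the members, while over all 917 fragments EV replicate 1 lay above DKO replicate 1. The part of this breadth in the rise of RANBP17 was not tested beyond the count of each fragment once.

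**Figure D4:**
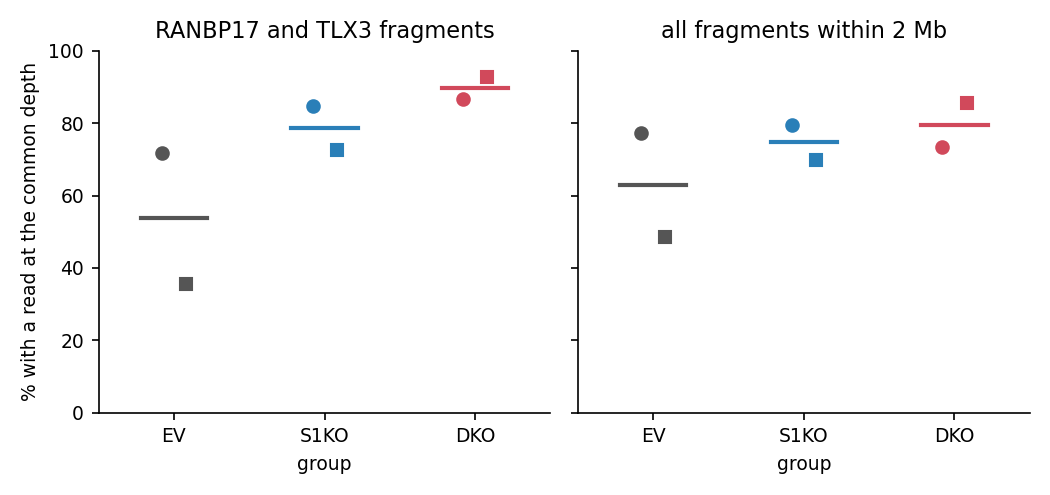
Percent of the 135 members (left) and of all 917 fragments within 2 Mb (right) expected to have a read at a common depth of 65464 reads, by group; circles are replicate 1, squares replicate 2 and bars the mean. EV replicate 2 is lowest in both, at 35.6% and 48.5%, and the DKO libraries exceed both EV libraries among the members, at 86.6% and 92.7%, but not among all fragments.

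Ratios of member reads to those of other stretches do not depend on the scaling. Against the stretch at the same distances above the viewpoint, the members held 0.207 and 0.179 of its reads in EV, 0.215 and 0.201 in S1KO, and 0.327 and 0.4 in DKO. DKO exceeded EV by 0.91 on the log2 scale (SE 0.18) and S1KO by 0.80, while S1KO exceeded EV by 0.11. With each fragment counted once these differences were 0.76, 0.23 and 0.53. By reads and without EV replicate 2, S1KO exceeded EV by 0.00858. Against the 18 fragments between TLX3 and the viewpoint, the ratios were 0.308 and 0.221 in EV, 0.416 and 0.309 in S1KO, and 0.455 and 0.586 in DKO, a DKO minus EV difference of 0.99 (SE 0.30). Against the 326 fragments from 2 Mb below to the start of RANBP17 they were 0.527 and 0.485, 0.493 and 0.512, and 0.755 and 0.722, a difference of 0.55 (SE 0.07). In all 3 ratios both DKO libraries lay above the 4 others. The exact permutation test, two-sided, gave p = 0.333 for each against EV, the smallest possible. Without EV replicate 2 the DKO minus EV differences were 0.81, 0.75 and 0.49.

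**Figure D5:**
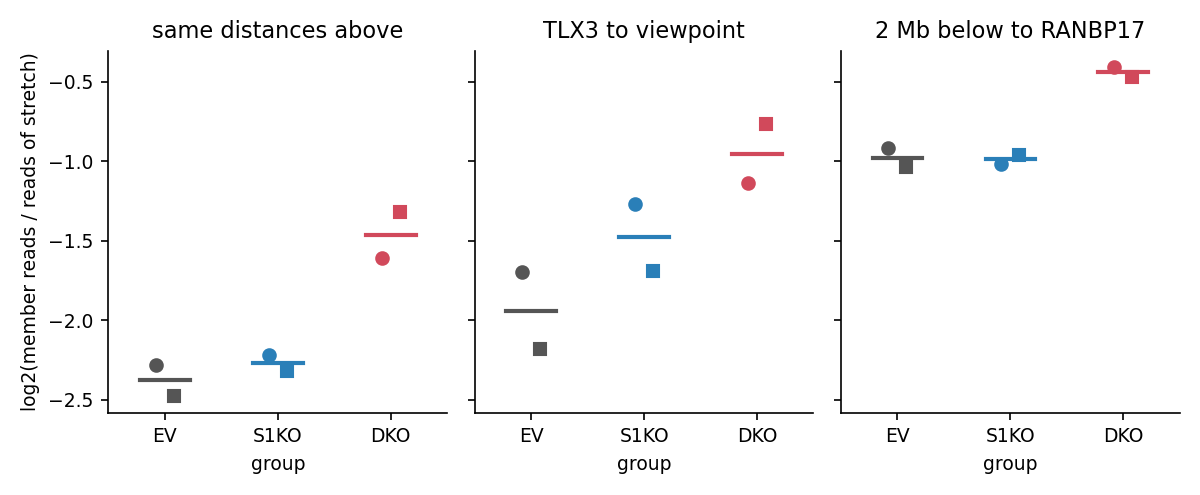
Log2 ratio of the reads on the RANBP17 and TLX3 fragments to the reads of another stretch, by group: the stretch at the same distances above the viewpoint (left), that between TLX3 and the viewpoint (middle) and that from 2 Mb below to RANBP17 (right); circles are replicate 1, squares replicate 2 and bars the mean. Both DKO libraries are the highest in each panel, with DKO minus EV differences of 0.91, 0.99 and 0.55.

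The reads of the other stretches are given for comparison. The stretch above held 282 ± 3.99 reads per 1000 in EV and 273 ± 18.7 in DKO, and that between TLX3 and the viewpoint 209 ± 30.4 and 191 ± 20.3. The stretch from 2 Mb below to RANBP17 held 107 ± 3.22 in EV and 134 ± 14 in DKO (SD, n = 2 each). The members together went from 54.4 ± 4.8 to 98.7 ± 7.21. Per 100 kb of listed fragments the members held 12.4 ± 1.1 in EV and 22.6 ± 1.65 in DKO, against 8.77 ± 0.263 and 10.9 ± 1.14 for the stretch beyond RANBP17.

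Among the 70 windows of 50 kb without a member, 3 followed the members most closely over the 6 libraries. They were chr5:169902458-169952457, 900 kb below (Pearson 0.977 on log2 shares), chr5:170952458-171002457, 100 kb above (0.933), and chr5:169652458-169702457, 1150 kb below (0.913). The first held 3.09 and 2.98 reads per 1000 in EV, 3.76 and 3.45 in S1KO, and 6.3 and 5.86 in DKO. The second, on the other side of the viewpoint, held far more, at 38 and 41.1 in EV, 43.4 and 53.5 in S1KO, and 79.7 and 84.3 in DKO. The 3 windows were picked for following the members, so their rise in DKO comes with the choice. Of all 438 fragments above the viewpoint, both DKO libraries lay above both EV libraries in 51 (11.6%) and below in 97 (22.1%). The third held 7.29 and 4.95 in EV, 8.96 and 9.73 in S1KO, and 11.9 and 14.7 in DKO. The window least like the members was chr5:171252458-171302457, 400 kb above (-0.966), with 28.7 and 40.1 in EV, 26.3 and 32.6 in S1KO, and 20.4 and 15.5 in DKO. All windows share the libraries and the total they are scaled to, and these correlations describe 6 points.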

How the data were processed

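Per the submitters' processing notes, reads were aligned with Bowtie2 2.2.5 to hg19. The program that assigned reads to fragments and called interactions is not given in the sources used here. The authors deposited, for each library, raw read counts on HindIII fragments. A p-value and a q-value of the authors stand beside each count, per the file headers. A column headed RPMs, per the file headers, is not proportional to the counts and is treated as a score that was not used.

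A fragment absent from a library's list was given 0 reads. Shares are reads per 1000 chr5 reads within 2 Mb of the viewpoint midpoint, without fragments whose centre lies within 10 kb of it. The quasi-likelihood test of edgeR 4.0.16 under R 4.3.3 (1 model for the 6 libraries, that total as library size, at least 10 reads in at least 2 libraries, Benjamini-Hochberg adjustment, threshold 0.05) tested gene sums with 50-kb windows, fragments, and windows, and DESeq2 1.42.0 was an alternative. The code of the fits was run on simulated counts, which checks the code and not how well the model holds for these data. Exact permutation tests used Python 3.11.15. Named fragments are that of TLX3, that with the start of RANBP17, the 8 of RANBP17 with most reads and the 3 members with the lowest p per comparison. Members and lists were chosen with earlier results of these data known. The sections of the stretch, the density ratio, the common depth and the counts and sections without EV replicate 2 were added after seeing the data. Same-numbered libraries deviated together with correlations of 0.0642, -0.281 and -0.222 over the windows, so the numbers were not used as pairs.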

Additional observations from a re-analysis of the deposited data

How the results depend on the processing

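With each fragment that had a read counted once, RANBP17 stood at log2 0.41 for DKO against EV and 0.11 for DKO against S1KO. Neither passed the threshold. The low-count filter then left 30 of the 72 features and 39 of the 80 windows. None of these passed in either comparison, member or not. The window starting 150 kb below stood at -0.07 for DKO against S1KO. The log2 ratio of members to the far stretch below was 0.31 for S1KO minus EV and -0.02 for DKO minus S1KO (-0.01 and 0.55 by reads). Also with fragments counted once, DKO minus S1KO for the stretch between TLX3 and the viewpoint was 0.23 (0.53 by reads), and DKO minus EV for the far stretch 0.29 (0.55 by reads). Scaled to all chr5 reads, RANBP17 in DKO against EV stood at 1.40. TLX3 has 1 fragment and gave no value with fragments counted once, nor with fragments wholly inside the gene or without the top fragment. Scaled to reads below only, RANBP17 in DKO against S1KO was 0.49 and missed the threshold. TLX3 in DKO against S1KO changed sign with all chr5 reads (0.00794), TMM (0.19) and DESeq2 (0.07), and DESeq2 called it for DKO against EV (1.30). DESeq2 called 1 member fragment in S1KO against EV, of 6 among all 789 fragments, and 2 in DKO against EV, of 12. Member windows called in DKO against EV, 2 of the 14 called among 80, became 0 of the 5 called among 159 with 25-kb windows, 3 of 11 with TMM, 5 of 18 with DESeq2, 4 of 9 with capped reads and 3 of 14 with the replicate block. For DKO against S1KO 25-kb windows gave 0 calls in all.

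With 1 library left out, RANBP17 in DKO against S1KO lay at 0.62 to 0.79, and the ratio to the far stretch for S1KO minus EV lay at -0.07 to 0.05. The number of member windows called also changed, but so did the number called over all windows. Such fits leave 1 library in a group, so these changes in calls do not single out the members. With the replicate block RANBP17 stood at 0.86 for DKO against EV (edgeR adjusted p = 0.00095) and 0.70 for DKO against S1KO (edgeR adjusted p = 0.01), and it changed no call of a gene or fragment. Causes of these changes were not tested. No read lay on 31 of 135 members in either EV library. The number of members with a read changed little at a common depth, though such thinning could remove few of them.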
